A study of Mus musculus with 47 samples.

Results

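The inducible myoblast lines C2C12 iCdh23 and C2C12 iMcam were compared after 48 h of differentiation in the presence of doxycycline (dox). The first carries an inducible Cdh23 transgene and the second an inducible Mcam transgene. The comparison rests on 6 of the 47 RNA-seq libraries of the series, 3 biological replicates of each induced line, chosen by their labels. C2C12 is an immortalized mouse myoblast line that leaves the cell cycle and fuses into myotubes when serum is withdrawn. Each transgene sits behind the dox-responsive TRE3G promoter of an XLone plasmid. It was inserted with PiggyBac transposase into puromycin-selected cells, and each line is 1 such selected pool. Dox was added at the switch to low-serum differentiation medium and polyA RNA was collected 48 h later. The same lines given vehicle for 48 h, 3 replicates each, served as controls, and all 12 libraries share 1 batch label. Because each line is 1 pool, the line and its transgene cannot be told apart. No line without a transgene was treated with dox in this batch, so dox itself and the transgene cannot be told apart here either. In the paper, dox did not affect fusion of wild-type cells or of a Halo-NLS line, which was scored by microscopy and not on RNA.

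Myogenic differentiation runs in a fixed order. MyoD1 and Myf5 mark the committed myoblast, myogenin (Myog) and Mef2 factors then switch on the muscle genes, the cell cycle closes under Cdkn1a, the fusogens Mymk and Mymx join the membranes, and sarcomere, acetylcholine receptor and calcium-handling genes follow. Cdh23 is an atypical cadherin best known from the tip link of inner ear hair cells, and Mcam is an immunoglobulin-type adhesion molecule of endothelial, smooth muscle and some mesenchymal cells. The study sequenced these lines to see what such adhesion genes contribute to the state of cells with raised MyoD1. The question taken up here is how far the 2 induced lines differ in the depth of the block.

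The libraries held 15066338 to 25110433 estimated counts, and 14552 genes passed the filter on low counts. All 6 skeletal muscle markers (Myod1, Myf5, Cdh15, Des, Myog and Pax7) exceeded 1 CPM on average in each of the 4 groups. Their summed level was 396 to 492 CPM in induced iCdh23, 626 to 1000 in induced iMcam, 2711 to 3677 in uninduced iCdh23 and 2035 to 3415 in uninduced iMcam. The adipocyte markers Adipoq, Plin1 and Cidec, the osteoblast markers Ibsp and Dlx5 and the leukocyte markers Cd3e and Tyrobp were at or near 0. Other members of these lists were not. On average 3 adipocyte markers exceeded 1 CPM in each group, as did 2 osteoblast markers in each induced and 3 in each uninduced group. Cebpa averaged 14.4 CPM in induced iCdh23 and 29.5 in induced iMcam. Dmp1 averaged 25.7 CPM in uninduced iCdh23 and 16.9 in uninduced iMcam. The summed level of the 8 adipocyte markers was 26.1 to 31.1 CPM in induced iCdh23 and 40.1 to 53.0 in induced iMcam, and that of the 8 osteoblast markers 28.0 to 39.0 and 59.5 to 65.6. That of the 7 leukocyte markers was 1.58 to 2.45 and 3.32 to 7.14, with Lyz2 at 1.5, 0.77 and 0.77 CPM in induced iCdh23 and 5.63, 2.62 and 2.38 in induced iMcam. The part of these in the results was not tested. Mitochondrially encoded transcripts took 4.18% to 5.53% of counts in induced iCdh23 and 3.43% to 4.87% in induced iMcam, and these ranges overlap. Replicate 3 of both induced groups stood above replicates 1 and 2 for most muscle genes, so the counts over all genes and over the muscle genes together are also given without it for the induced difference and for the difference of dox effects. CPM here is a gene's estimated count relative to its library's total after TMM scaling. In bulk RNA, fewer muscle cells and less muscle RNA per cell cannot be told apart.

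The induced genes themselves were read first. Cdh23 (chromosome 10, 60302748 to 60696490 on GRCm38) stood at 618, 450.2 and 501 CPM in induced iCdh23 and 398, 369.7 and 485 CPM in uninduced iCdh23. It was therefore high in that line without dox. The log2 change with dox was 0.33 ± 0.174 (SE; adjusted p = 0.119), or 0.65 (adjusted p = 0.00305) when libraries were scaled by size alone. In iMcam, the same gene rose from 5.94, 9.55 and 9.35 CPM to 48.2, 62.5 and 56.3 CPM with dox, a log2 change of 2.75. Mcam (chromosome 9, 44134469 to 44142727) rose in both lines. Its level went from 21, 18.4 and 18.6 to 75.7, 76.7 and 80.4 CPM in iMcam and from 8.15, 6.92 and 5.14 to 59.5, 49.8 and 49.3 CPM in iCdh23. The log2 rise was 2.00 in iMcam and 2.97 in iCdh23, a difference of 0.97 (adjusted p = 0.0102), and Mcam was lower in uninduced iCdh23 by the test (−1.52, adjusted p = 0.000305). Between the induced lines, Cdh23 was 3.23 higher on the log2 scale in iCdh23 (adjusted p = 1.33e-06). Mcam differed by −0.55 (adjusted p = 0.00916), under 2-fold, and did not pass at an adjusted p of 0.05 with all groups of the deposited table in the fit (−0.55, adjusted p = 0.687) and without replicate 3 (−0.48, adjusted p = 0.105). So the dox label of iCdh23 is not checked by the level of Cdh23, and the rise of Mcam does not single out iMcam. The sources used here do not say whether the transgene sequences were in the reference, nor from which species they came.

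By transcript, the counts of Cdh23 were not spread in the same way. The retained-intron transcript Cdh23-209 took 53.8% of the gene's counts in uninduced and 21.3% in induced iCdh23, and had 0 in iMcam. The protein-coding Cdh23-203, Cdh23-204 and Cdh23-205 took 14.4%, 14.6% and 29.5% in induced iCdh23. These shares are model-based assignments of reads among overlapping transcripts.

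**Figure D1:**
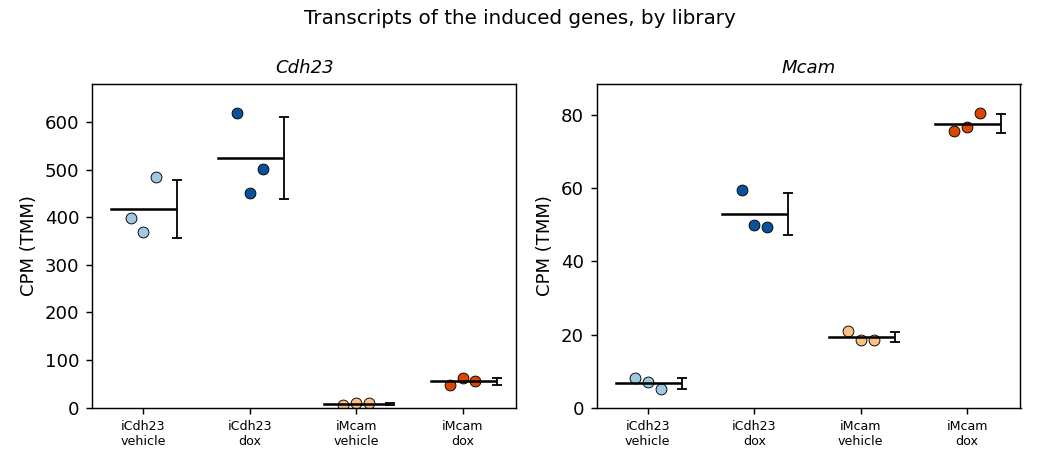
CPM of Cdh23 and Mcam in each of the 12 libraries (points), with the group mean (horizontal line) and SD (n = 3) at its right end; both axes start at 0. Cdh23 sits between 370 and 618 CPM in all 6 iCdh23 libraries whether or not dox was given, and both genes rise with dox in iMcam.

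Between the induced lines, more genes were lower in iCdh23 than higher. A gene was called where edgeR's quasi-likelihood test gave a Benjamini-Hochberg adjusted p below 0.05 together with a change of more than 2-fold. By that rule 1170 genes were lower in induced iCdh23 (8.04% of those tested) and 401 were higher (2.76%). Without replicate 3 of both groups the counts were 904 and 267. With all groups of the deposited table in the fit, 50 of the 207 induced differences of named genes rose above an adjusted p of 0.05, among them those of Ckb, Csrp3, Egfl7, Fgf21, Hap1, Id2, Itga6, Mcm5, Myh7, Nectin4, Psat1, Tead4 and Uchl1. By the adjusted p alone 15.3% were lower and 11.5% higher, and the induced groups did not overlap for 24.5% of genes with iCdh23 lower and 24.9% with iCdh23 higher. Between the uninduced lines 88 genes were lower (0.605%) and 69 higher (0.474%) in iCdh23, or 0.976% and 0.996% by the adjusted p alone, and 8.14% and 8.67% did not overlap. The replicate numbers pair the uninduced libraries, and with the number as a block these counts became 151 and 128. They were 28 and 20 with the uninduced groups alone in the fit, and 38 and 31 without replicate 2 of uninduced iCdh23. Of the 1170 genes lower in induced iCdh23, 77 were also lower in the uninduced line at an adjusted p under 0.05, and 10 were higher there.

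Each line was then set against its own vehicle control. In iCdh23, 2543 genes fell (17.5%) and 1883 rose (12.9%). In iMcam, 1465 fell (10.1%) and 1089 rose (7.48%). These splits move with the scaling: the share of called genes that rose was 42.5% in iCdh23 and 42.6% in iMcam with TMM factors, and 60.1% and 58.3% with library size alone, which shifts the median of all genes by 0.32 and 0.21 on the log2 scale. The genes that fell were largely shared, since 1374 fell in both lines. That is 93.8% of those that fell in iMcam and 54.0% of those that fell in iCdh23. Across these 1374, the median log2 change was −3.05 in iCdh23 and −1.86 in iMcam. The direct test of the depth is the difference of the dox effects, iCdh23 minus iMcam. It was below −1 at an adjusted p under 0.05 for 796 genes (5.47%) and above 1 for 148 (1.02%), or for 7.61% and 3.03% by the adjusted p alone. The 2 dox effects share no library. Of the 796, 591 had fallen in both lines and 191 had fallen in iCdh23 with no call in iMcam. Leaving out replicate 2 of induced iCdh23 brought the 796 down to 515, and leaving out replicate 3 of both induced groups brought it down to 500. With all groups of the deposited table in the fit the counts were 333 lower and 33 higher, and the 148 became 71 without replicate 3. In that fit with all groups, 70 of the 209 differences of named genes rose above an adjusted p of 0.05. Among them were those of Myf5, Mki67, Igfbp5, Clrn1, Myo7a and Abat.

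Many muscle genes were lower in induced iCdh23. Of 166 genes in 8 lists, from regulators to muscle metabolism, 150 were tested. Between the induced lines 78 of them were lower in iCdh23 and 0 higher, against 8.04% and 2.76% of all genes tested. Without replicate 3 of both groups 63 were lower. Their median log2 difference was −1.54, against 0.0043 over all genes. The induced groups did not overlap for 112 with iCdh23 lower and for 7 with iCdh23 higher, against 24.5% and 24.9% of all genes. Between the uninduced lines 0 were lower and 1 was higher (0.605% and 0.474% of all genes). With dox, 122 fell in iCdh23 and 98 in iMcam, against 17.5% and 10.1% of all genes. The median member kept 6.61% of its vehicle level in iCdh23 and 27.9% in iMcam, where the median of all genes kept 99.8% and 101%. The share kept was smaller in iCdh23 for 141 of the 150, and for 7551 of the 14552 genes tested. The difference of dox effects was called for 76, all lower, against 5.47% of all genes, or for 58 without replicate 3 and 47 without replicate 2 of induced iCdh23.

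**Figure D2:**
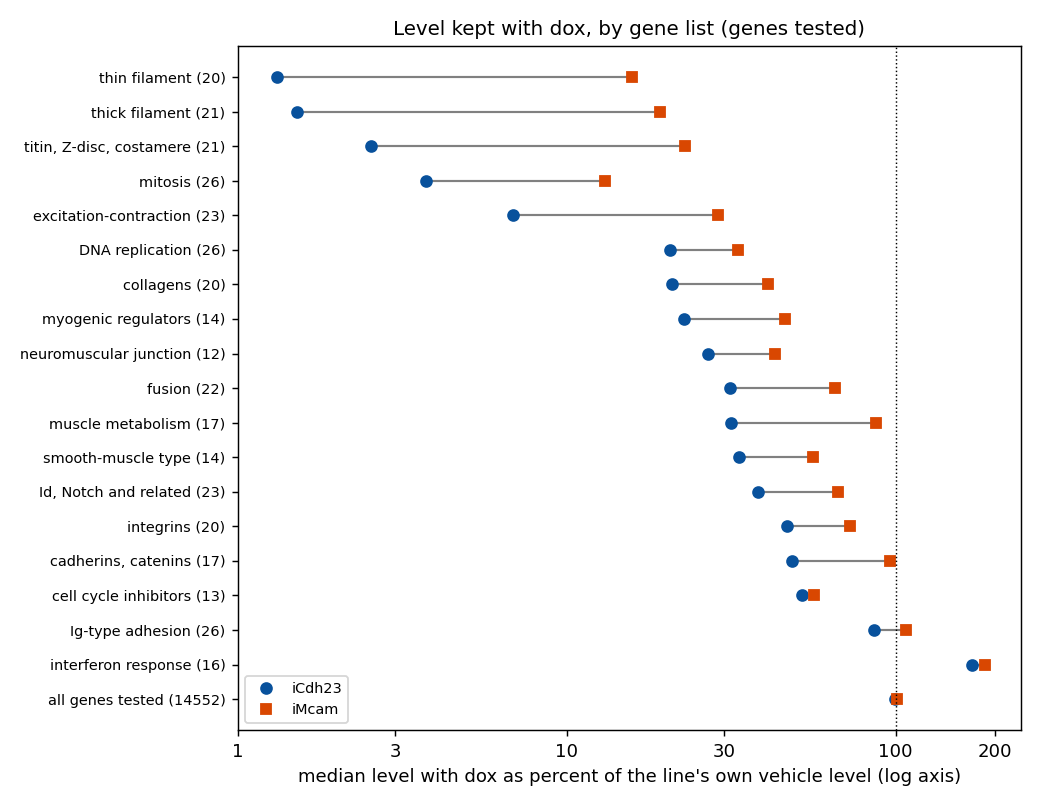
Median level with dox as a percent of the same line's vehicle level, by gene list, on a log axis; circles are iCdh23, squares are iMcam, and the number of genes tested is in brackets. The thin filament list keeps 1.31% in iCdh23 and 15.8% in iMcam, while all genes tested sit at 99.8% and 101%.

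Among the regulators of myogenesis, Csrp3, Myog, Rbm24 and Tead4 were lower in induced iCdh23. Of 14 regulators tested out of 17, 4 were lower in induced iCdh23 at over 2-fold and 9 at an adjusted p alone, against 8.04% and 15.3% of all genes. Myog, the factor that commits cells to terminal differentiation, was at 3.54, 3.92 and 16.3 CPM in induced iCdh23 and 76.7, 75.2 and 173 CPM in induced iMcam. The groups did not overlap, and replicate 3 was the highest of each. Without dox its level was 875, 1174 and 1601 CPM in iCdh23 and 652, 808 and 1283 CPM in iMcam, which overlap. The induced difference was −3.77 ± 0.588 on the log2 scale (SE; adjusted p = 0.000742), or 13.7-fold. Myog kept 0.651% of its vehicle level in iCdh23 and 11.9% in iMcam, and its dox effects, −7.26 and −3.08, differed by −4.18 (adjusted p = 0.00606).

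The promoter of Myog is shown with those of Mybph, which lies on the same chromosome, and Acta1, because all 3 genes fell in both lines and fell further in iCdh23. Each is the stretch of 250 bases before the RefSeq start (GRCm38.p6), 5′ to 3′ along the gene, and capitals mark each E-box, CANNTG, the motif bound by MyoD1 and Myog. CANNTG reads the same on both strands and 66.2% of 32841 promoter windows of this length hold one. None of the E-boxes shown overlap.
Myog, chr1:134289754-134290003, plus strand: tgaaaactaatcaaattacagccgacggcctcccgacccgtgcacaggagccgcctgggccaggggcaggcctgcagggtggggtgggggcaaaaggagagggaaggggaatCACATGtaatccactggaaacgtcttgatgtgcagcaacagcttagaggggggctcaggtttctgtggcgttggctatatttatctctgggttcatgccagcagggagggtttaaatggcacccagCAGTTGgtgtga
Mybph, chr1:134193198-134193447, plus strand: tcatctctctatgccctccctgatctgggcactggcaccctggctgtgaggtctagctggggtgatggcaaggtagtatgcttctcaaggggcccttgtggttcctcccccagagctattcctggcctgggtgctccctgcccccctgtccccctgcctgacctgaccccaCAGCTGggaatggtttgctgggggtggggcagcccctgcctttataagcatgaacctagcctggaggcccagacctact
Acta1, chr8:123894776-123895025, minus strand: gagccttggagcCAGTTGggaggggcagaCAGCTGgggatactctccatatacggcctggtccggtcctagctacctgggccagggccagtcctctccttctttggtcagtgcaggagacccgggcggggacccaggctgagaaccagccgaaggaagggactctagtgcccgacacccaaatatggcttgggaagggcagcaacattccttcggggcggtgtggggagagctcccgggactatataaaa
The Myog window held 2 E-boxes, CACATG and CAGTTG, ending 132 and 6 bases before the start. The Mybph window held 1, CAGCTG, 73 bases before it. The Acta1 window held CAGTTG and CAGCTG at 232 and 215 bases, and 13% of all windows hold the CAGCTG form. These are letter matches and no binding was measured in these samples.

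Among the other regulators, Rbm24, an RNA-binding protein of muscle splicing, was at 4.18, 2.66 and 9.28 CPM in induced iCdh23 and 27.2, 24.1 and 57.7 in induced iMcam, with no overlap. Its log2 difference was −2.76 (adjusted p = 0.00103). Csrp3, a muscle LIM protein, was almost silent in induced iCdh23 at 0.0454, 0.07 and 0.308 CPM, against 1.66, 1.23 and 4.11 CPM in induced iMcam (adjusted p = 0.0155). Tead4 was also lower, at −1.39 (adjusted p = 0.0168). The calls on Csrp3 and Tead4 were lost under some of the alternative settings, that on Csrp3 without replicate 2 of induced iCdh23 (−3.62) or replicate 3 of induced iMcam (−3.28).

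Of the factors that stand before Myog, Myod1 was at 48.1, 30.4 and 55.6 CPM in induced iCdh23 and 71.3, 61.1 and 97 CPM in induced iMcam, and at 214, 234 and 358 CPM in uninduced iCdh23. Its induced difference was −0.78 ± 0.256 (adjusted p = 0.0423), under 2-fold, and the adjusted p was above 0.05 in other settings, among them without replicate 2 of induced iCdh23 (−0.56). Its difference of dox effects was not called (−0.95, adjusted p = 0.121). Myf5 overlapped between the induced lines at 8.26, 9.73 and 14.4 and 9.77, 14.4 and 14.7 CPM, though its dox effects differed by −1.22 (adjusted p = 0.0211), a call lost without replicate 2 of induced iCdh23 (−1.15) and without other single libraries. The homeobox factor Six4 was at 34.8, 28.7 and 26.3 against 56.2, 57.8 and 65 CPM, groups that do not overlap, and its adjusted p was 0.000126 with a change just short of 2-fold. Eya4, a transcriptional cofactor, had a log2 difference of −0.67 (adjusted p = 0.00421). Mef2d (log2 difference 0.02, 95% interval −0.29 to 0.33), Mef2a (−0.46, −0.97 to 0.04), Mef2c (−1.42, −4.53 to 1.70) and Eya1 (−0.12, −0.76 to 0.52) did not pass the test. Myf6, Mef2b and Eya2 were below the count filter.

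The muscle-specific fusogens were lower in induced iCdh23. Mymk, the membrane protein that drives fusion, was at 4.22, 4.31 and 14.1 CPM in induced iCdh23 against 51.6, 52.6 and 124 CPM in induced iMcam. Mymx, its small partner, was at 0.636, 1.19 and 3 CPM against 8.42, 8.63 and 25.2 CPM. In both genes the induced groups did not overlap and replicate 3 was highest. The log2 differences were −3.33 ± 0.498 (adjusted p = 0.000572) and −3.11 ± 0.621 (adjusted p = 0.00341). Mymk kept 1.28% and 16.1% of its vehicle level in iCdh23 and iMcam, and Mymx 1.36% and 16.5%. The dox effects differed by −3.65 for Mymk and −3.58 for Mymx (adjusted p = 0.00544 and 0.0147).

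Of 22 fusion genes tested out of 24, 7 were lower and 0 higher in induced iCdh23, where 8.04% and 2.76% of all genes were. Elmo1, which acts with Dock proteins on Rac during fusion, had the largest difference of the list. It was at 1.77, 1.79 and 2.43 CPM in induced iCdh23 and 38.9, 46.3 and 40.2 CPM in induced iMcam, and it had no call with dox in iMcam (−0.21, adjusted p = 0.586) but fell by 14.2-fold in iCdh23. The dox effects differed by −3.62 (adjusted p = 0.000886). Myof, a ferlin of membrane fusion, was lower, at −1.06 (adjusted p = 0.000126). The integrin chain Itgb1 at 613, 677 and 680.2 against 685, 694 and 811 CPM (log2 difference −0.15, 95% interval −0.49 to 0.19) and the tetraspanin Cd81 at 309, 317 and 304 against 363, 356 and 301 CPM (−0.13, −0.32 to 0.05) did not pass the test.

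Sarcomere genes had the lowest medians of the muscle lists. Of 62 tested out of 67, 46 were lower in induced iCdh23 and 0 higher (8.04% and 2.76% of all genes), with a median log2 difference of −3.01. Between the uninduced lines the counts were 0 and 0, with a median of 0.49. The median sarcomere gene kept 1.5% of its vehicle level in iCdh23 and 17.8% in iMcam, and all 62 kept less in iCdh23. The difference of dox effects was called for 44, all lower, against 5.47% of all genes.

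Among thin filament genes, Acta1, skeletal alpha-actin, was at 13.3, 14 and 45.8 CPM in induced iCdh23 and 235, 229.9 and 659 CPM in induced iMcam, a log2 difference of −3.94 ± 0.597 (adjusted p = 0.000627). Without dox it stood at 2256, 2998 and 3645 CPM in iCdh23 and 1830.5, 2525 and 4445 CPM in iMcam. The uninduced groups overlap and the induced groups do not. Its dox effects differed by −3.96 (adjusted p = 0.00867). Actc1, the cardiac alpha-actin that embryonic skeletal muscle also uses, was at 6.13, 7.28 and 21.5 against 71.7, 93.5 and 235 CPM (log2 difference −3.52, adjusted p = 0.00125). Xirp1, an actin-binding protein, had the lowest value of the list at −4.70 (adjusted p = 0.000186), from 0.182, 0.455 and 0.578 against 6.76, 6.35 and 19.7 CPM. The leiomodins Lmod2 and Lmod3, which nucleate actin, differed by −4.15 and −3.70. Tpm1 and Tpm2, tropomyosins with forms outside muscle, were lower as well. Tpm1 was at 302, 263 and 268 against 759.5, 699 and 849.8 CPM and differed by −1.47 (adjusted p = 5.04e-05), and Tpm2 by −1.14.

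Most thick filament genes were lower too. Myh3, the embryonic myosin heavy chain, was at 9.4, 10.6 and 29.3 CPM in induced iCdh23 and 90.1, 130.1 and 395 CPM in induced iMcam, a log2 difference of −3.64 ± 0.644 (adjusted p = 0.00163). Mybph, a myosin-binding protein, was at 3.45, 5.11 and 15.2 against 60.0, 65.2 and 197 CPM, and its log2 difference was −3.76 (adjusted p = 0.00157). Neither gene's groups overlap. Mylpf, a fast regulatory light chain, differed by −3.11 (adjusted p = 0.00427), and the adult chains Myh1 and Myh7 by −3.69 and −3.93 at lower levels. In all, 15 of 21 thick filament genes were lower and 0 higher (8.04% and 2.76% of all genes).

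In the titin, Z-disc and costamere list, 14 of 21 genes were lower and 0 higher (8.04% and 2.76% of all genes). Ttn, the giant spring of the sarcomere, was at 5.04, 4.73 and 13.8 CPM in induced iCdh23 and 69.9, 87.4 and 267 CPM in induced iMcam. The groups do not overlap, and the log2 difference was −4.17 ± 0.68 (adjusted p = 0.000986). Ttn kept 0.85% and 18.7% of its vehicle level, and its dox effects differed by −4.46 (adjusted p = 0.00876). Synpo2l differed by −3.76 (adjusted p = 0.00024). Des, the desmin of myoblasts and muscle, fell with dox in both lines, by −2.44 in iCdh23 and −1.57 in iMcam on the log2 scale. It was at 221, 207 and 214 CPM in induced iCdh23 against 315, 301 and 482 CPM in induced iMcam. The difference was −0.78 (adjusted p = 0.0137), a change under 2-fold. Its adjusted p was above 0.05 without replicate 2 of induced iCdh23 (−0.75) or replicate 3 of induced iMcam (−0.53). Flnc, a filamin, differed by −0.73 (adjusted p = 0.0195), also under 2-fold, with an adjusted p above 0.05 without that replicate 2 (−0.56) and without other single libraries.

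**Figure D3:**
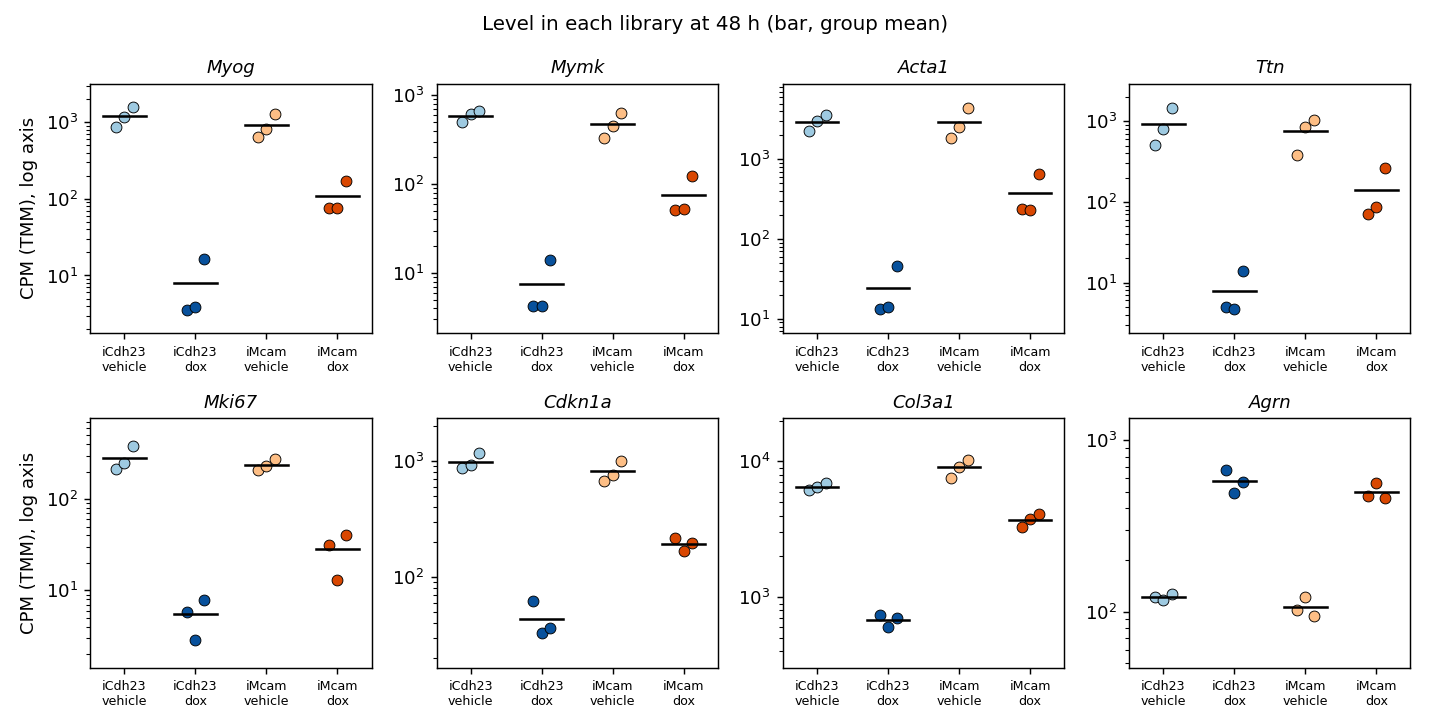
CPM on a log axis in each of the 12 libraries for 8 genes, with a bar at each group mean. For Myog, Mymk, Acta1, Ttn, Mki67, Cdkn1a and Col3a1 the induced iCdh23 libraries lie below the induced iMcam libraries, which lie below both uninduced groups; Agrn is raised by dox to overlapping ranges in both lines.

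Acetylcholine receptor genes fell in both lines, and further in iCdh23. Chrna1, Chrng and Chrnd, subunits of the acetylcholine receptor, were lower in induced iCdh23, at −2.06, −2.91 and −1.74 on the log2 scale (adjusted p = 0.000325, 0.000948 and 0.0101). Chrna1 was at 36, 24.7 and 49.3 against 124, 117 and 217 CPM, and the groups do not overlap. Musk, the kinase that clusters the receptor, was lower, at −1.80 (adjusted p = 0.000223). In this list 5 of 12 genes were lower and 0 higher (8.04% and 2.76% of all genes). A member that moved the other way was Agrn, the agrin that activates Musk through Lrp4. It stood at 671, 489 and 574 CPM in induced iCdh23 and 476, 561 and 460.2 in induced iMcam, up from 121, 116 and 126 and 103, 122 and 94.1 without dox. It rose by 2.25 and 2.23, a difference of dox effects of 0.02 with a 95% interval of −0.39 to 0.43.

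Of 23 excitation-contraction genes, 12 were lower and 0 higher (8.04% and 2.76% of all genes). Atp2a1, the fast-muscle calcium pump, was at 3.63, 3.64 and 10.3 CPM against 27, 32.2 and 75.8 CPM (log2 difference −2.94, adjusted p = 0.00333). Casq2, a calsequestrin, and Cacna1s, the voltage sensor, differed by −3.19 and −3.28. Atp2a2, the pump that non-muscle cells also use, was at 348, 293 and 306 against 339, 321 and 403 CPM, groups that overlap, with a log2 difference of −0.17 (95% interval −0.49 to 0.16).

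In the metabolism list 4 of 17 genes were lower and 0 higher in induced iCdh23 (8.04% and 2.76% of all genes), and its median log2 difference was 1.67e-05. The 4 were Ckm, Ckb, Eno3 and Mb. Ckm, muscle creatine kinase, was at 1.14, 1.79 and 4.47 against 13.5, 15.8 and 43.7 CPM, a log2 difference of −3.29 (adjusted p = 0.002). Ckb, the brain-type creatine kinase, and Eno3, muscle enolase, differed by −1.37 and −1.16. Pfkm, muscle phosphofructokinase, was at 222, 239.9 and 231 against 181, 202 and 208 CPM with a log2 difference of 0.23 (95% interval −0.34 to 0.80).

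**Figure D4:**
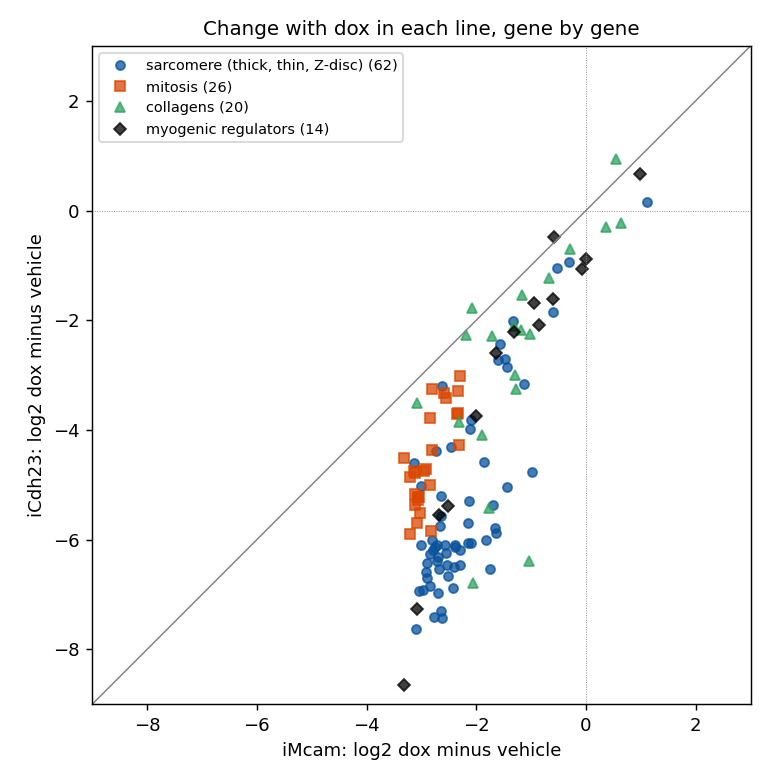
Log2 change with dox in iMcam (horizontal) and iCdh23 (vertical) for the tested genes of the sarcomere (62), mitosis (26), collagen (20) and myogenic regulator (14) lists, with the line of equal change. All 62 sarcomere genes and all 26 mitosis genes lie below the line.

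Mitosis genes fell in both lines. Of 26 mitosis genes, all tested, 26 fell in iCdh23 and 26 in iMcam (17.5% and 10.1% of all genes), and they kept a median of 3.72% and 13.1% of the vehicle level. Between the induced lines 19 were lower in iCdh23 and 0 higher (8.04% and 2.76% of all genes), and 18 had a called downward difference of dox effects (5.47% of all genes). Mki67, a protein of cycling cells, was at 5.86, 2.84 and 7.82 CPM in induced iCdh23 and 31.2, 13.1 and 40.5 CPM in induced iMcam, with 213, 252 and 384 CPM and 209, 229.6 and 276 CPM in the uninduced lines. Replicate 2 was the lowest in both induced groups, which do not overlap. The log2 difference was −2.37 ± 0.425 (adjusted p = 0.00177) and the dox effects differed by −2.62 (adjusted p = 0.0134). Bub1, a checkpoint kinase, had the largest value of the list, −2.71 (adjusted p = 0.000287), and Ccnb1, the mitotic cyclin, was lower, at −2.38. Ccna2 averaged 8.27 ± 1.12 against 14.3 ± 3.69 CPM (mean ± SD, n = 3; log2 difference −0.79, adjusted p = 0.0143), a change under 2-fold whose adjusted p was above 0.05 without replicate 2 of induced iCdh23 (−0.68) and without other single libraries.

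Of 26 DNA replication genes, 25 fell in iCdh23 and 24 in iMcam (17.5% and 10.1% of all genes), 6 were lower in induced iCdh23 (8.04% of all genes), and the medians kept were 20.6% and 33.2%. Rrm2, a ribonucleotide reductase subunit, was at 5.81, 3.99 and 8.4 against 32.7, 21.5 and 34 CPM (log2 difference −2.28, adjusted p = 9.06e-05). Mcm5 of the replicative helicase and the S-phase factor E2f1 were lower, at −1.63 and −1.44. Pcna, the sliding clamp, was at 32.1, 38.9 and 39.1 against 50.2, 43.3 and 44.6 CPM and did not pass the test (−0.33, 95% interval −0.65 to −0.01).

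Some cell cycle inhibitors of differentiation fell too. Cdkn1a, the inhibitor that MyoD1 raises as myoblasts leave the cycle, was at 62.6, 33.3 and 36.4 CPM in induced iCdh23, 218, 169 and 197 CPM in induced iMcam, 863, 917 and 1156 CPM in uninduced iCdh23 and 673, 759.5 and 1000.2 CPM in uninduced iMcam. The induced groups do not overlap, with a log2 difference of −2.14 ± 0.24 (adjusted p = 9.73e-05), and the dox effects differed by −2.41 (adjusted p = 0.0012). Cdkn1c, a second inhibitor of muscle precursors, was lower, at −2.47, and Gadd45g was at −2.15 (adjusted p = 0.000101 and 0.000118). These were the 3 of 13 genes called in this list, all lower, where 8.04% of all genes were. Cdkn1b (−0.12, 95% interval −0.38 to 0.13) and the pocket protein Rbl2 (0.03, −0.17 to 0.24) did not pass the test.

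Among factors that hold back differentiation, 6 of 23 were lower and 1 was higher in induced iCdh23, against 8.04% and 2.76% of all genes, so the count of those higher is near the background. The 1 higher was Id2, which binds E proteins away from MyoD1: 10.5, 16.4 and 20.0 CPM against 9.39, 5.23 and 7.58 CPM, a log2 difference of 1.08 (adjusted p = 0.0314), a call lost without replicate 2 of induced iCdh23 (1.05) and without other single libraries. It had fallen with dox in both lines, and its difference of dox effects was not called (0.96, adjusted p = 0.215). Hes1, a Notch target, was at 2.5, 2.38 and 3.08 against 7.57, 8.02 and 12.2 CPM, a log2 difference of −1.80 (adjusted p = 0.000106), and the Notch ligand Dll1 was lower, at −1.64 (adjusted p = 0.000382). Another ligand, Jag2, was at 133, 121 and 122 against 63.1, 66.6 and 63.3 CPM, 0.96 on the log2 scale (adjusted p = 0.000888). Snai2, a repressor of E-box genes in myoblasts, was lower, at −1.71 (adjusted p = 0.000163) and its dox effects differed by −1.68. Pax7, the satellite cell factor, was at 108, 81.1 and 97 against 70.8, 81.2 and 82 CPM with a log2 difference of 0.29 (95% interval 0.01 to 0.56). The receptors Notch1 (0.11, −0.22 to 0.44) and Notch3 (−0.03, −0.53 to 0.46) did not pass the test.

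Adhesion genes moved in both directions. Of 17 cadherin and catenin genes tested out of 32, 5 were lower and 2 higher (8.04% and 2.76% of all genes), the latter being Cdh23 itself and Cdhr5. Cdhr5 was near the floor, at 0.636, 0.455 and 0.809 against 0.0537, 0.223 and 0.248 CPM (adjusted p = 0.0381). It had at most 3 counts in every uninduced library, and its call was lost without replicate 2 of induced iCdh23 and without other single libraries. Cdh11, a cadherin of mesenchymal cells, was lowest (−2.77, adjusted p = 0.000529). Cdh2, N-cadherin, which joins myoblasts before fusion, was at 44.9, 29.6 and 34.6 CPM against 150.3, 112 and 131 CPM, a log2 difference of −1.85 (adjusted p = 1.57e-05). Fat4 was lower, at −2.51 (adjusted p = 0.00019). Cdhr1, a protocadherin of photoreceptors, fell in iCdh23 and had no call in iMcam. It went from 136, 152 and 158 to 31.9, 24.5 and 32.2 CPM with dox in iCdh23 and from 78.3, 71 and 97.5 to 88.1, 88.7 and 94 CPM in iMcam, and the dox effects differed by −2.47 (adjusted p = 6.45e-05). Cdh15, M-cadherin, was at 85, 64.3 and 94.6 against 82.5, 97.4 and 151 CPM (−0.44, 95% interval −0.91 to 0.03). Ctnnb1, beta-catenin, was at 829, 864 and 854 against 834, 891 and 950.4 CPM, a log2 difference of −0.07 (95% interval −0.27 to 0.12).

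Of 26 immunoglobulin-type adhesion genes, 5 were higher and 2 lower in induced iCdh23, where 2.76% and 8.04% of all genes were. By the adjusted p alone 8 were higher and 11 lower (11.5% and 15.3% of all genes), the median log2 difference was −0.30, and the groups did not overlap for 10 with iCdh23 higher and 14 with iCdh23 lower (24.9% and 24.5% of all genes). Nfasc, neurofascin of axons, was at 6.04, 8.02 and 6.36 CPM against 0.483, 0.501 and 0.347 CPM, a log2 difference of 3.93 (adjusted p = 9.42e-05), and had at most 3 counts in every uninduced library. L1cam and Cadm3, both of neurons, were higher by 1.25 and 1.75 (adjusted p = 0.00238 and 0.00143), and Cadm3 was also higher without dox. Cadm4 and Nectin4 were the remaining ones. Cadm4, chosen after its values were seen, was at 123, 129.7 and 122 against 55.9, 62.5 and 59.6 CPM (1.08, adjusted p = 0.000141). Kirrel3 and Ncam1 were lower, at −2.63 and −1.15 (adjusted p = 0.000305 and 0.00474). Among integrins, 5 of 20 were lower and 1 higher, against the same shares of all genes. Itga10 and Itgb6 were lower, at −3.69 and −4.75, and the laminin-binding Itga6 was at 36.4, 48.2 and 42.1 against 16.3, 17.5 and 24.9 CPM, higher by 1.11 (adjusted p = 0.0216), a call lost without replicate 2 of induced iCdh23 and without other single libraries.

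Of 12 partners of Cdh23 in and around the tip link, 7 were tested, and 2 were higher and 0 lower in induced iCdh23, or 4 and 1 by the adjusted p alone, against 2.76% and 8.04%, or 11.5% and 15.3%, of all genes. Myo7a, the motor that anchors the link, was at 21.9, 19.5 and 20.6 CPM in induced iCdh23, 4.78, 5.51 and 4.56 in induced iMcam, and at most 1.07 CPM in any uninduced library. It rose in both lines, by 4.55 and 2.35 on the log2 scale. The groups do not overlap, and the rise differed by 2.20 ± 0.299 (adjusted p = 0.00118), a call lost with all groups of the deposited table in the fit. Ush1c, the harmonin of the same complex, was at 0.772, 0.945 and 0.693 against 0.107, 0.223 and 0.0991 CPM (2.46, adjusted p = 0.0036), and Cib2 at 71.9, 95.4 and 83.4 against 56.9, 60.8 and 60.1 CPM (0.50, adjusted p = 0.0094), a change under 2-fold whose adjusted p was above 0.05 without replicate 2 of induced iCdh23 (0.39). Clrn1, clarin, was at 0.681, 0.875 and 1.04 against 1.29, 1.84 and 1.49 CPM, a log2 difference of −0.82 (adjusted p = 0.0197). It fell in both lines and its dox effects differed by −1.53 (adjusted p = 0.00878). Pcdh15, the other strand of the tip link, Lhfpl5 and Tmc1 were below the filter. Of 14 genes listed as partners of Mcam, 13 were tested. Of these, 3 were lower and 0 higher in induced iCdh23, against 8.04% and 2.76% of all genes, or 6 and 1 by the adjusted p alone. Lama4, a laminin chain that binds Mcam, was lower, at −2.65, and the receptor Pdgfrb at −1.65 (adjusted p = 2.60e-05 and 1.92e-05). Lamb1 was the remaining one, at −1.09. Ezr, ezrin, was at 201, 201 and 185 against 131, 139.8 and 131 CPM (0.55, adjusted p = 0.0179).

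Most collagen genes were lower in induced iCdh23. Of 20 collagen chains, all tested, 15 were lower and 0 higher (8.04% and 2.76% of all genes), with a median log2 difference of −1.34. With dox 16 fell in iCdh23 and 15 in iMcam (17.5% and 10.1% of all genes), and 7 had a called downward difference of dox effects (5.47%). Col3a1, the most abundant of them by the mean over the 12 libraries though below Col6a1 in induced iCdh23, was at 739, 606 and 708 CPM against 3292, 3759 and 4096 CPM, a log2 difference of −2.44 ± 0.14 (adjusted p = 1.33e-06). Without dox it was at 6182, 6486 and 6896 CPM in iCdh23 and 7611, 9169.9 and 10291 CPM in iMcam. The groups do not overlap with or without dox, and the dox effects differed by −1.97 (adjusted p = 0.000216). Col12a1 was at 36, 7.04 and 15 against 581, 289.6 and 313 CPM (−4.36, adjusted p = 0.000111). Col14a1 differed by −3.66 and Col6a1 by −0.78 (adjusted p = 0.000223 and 0.000572).

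Contractile genes of smooth muscle type, which serum response factor also drives in myoblasts, gave 8 lower and 1 higher of 14 (8.04% and 2.76% of all genes). Between the uninduced lines 2 were lower (0.605% of all genes), and the difference of dox effects was called lower for 3 and higher for 1 (5.47% and 1.02%). Acta2, smooth muscle actin, was at 69.3, 51.4 and 98 CPM against 568, 464 and 788 CPM, a log2 difference of −3.06 (adjusted p = 2.60e-05), and its dox effects differed by −2.77. Tagln and Ccn1 were lower, at −2.39 and −2.88 (adjusted p = 0.000567 and 0.000256). Without dox neither gene's groups overlapped, at −1.40 and −1.25 (adjusted p = 0.0574 and 0.0987), and their differences of dox effects were not called (−0.99 and −1.63, adjusted p = 0.225 and 0.0595).

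In the list of IGF and imprinted genes, 6 of 15 were lower and 0 higher (8.04% and 2.76% of all genes). Igf1, the growth factor that promotes muscle differentiation, went from 85, 127 and 137 to 19, 17.4 and 34.4 CPM with dox in iCdh23 and from 141, 170.4 and 162 to 97.3, 107 and 196 CPM in iMcam. The change was called in iCdh23 (−2.30) and not in iMcam (−0.24, adjusted p = 0.523), and the difference itself was −2.06 (adjusted p = 0.0113). H19, an imprinted noncoding RNA of muscle, was at 38.7, 33.2 and 102 against 345, 328 and 706 CPM (−2.99, adjusted p = 0.000684). Igfbp3 was lower, at −2.90 (adjusted p = 0.00127), and Igfbp5 did not pass the test between the induced lines (−0.67, 95% interval −1.30 to −0.03), but it was higher in uninduced iCdh23 and its dox effects differed by −2.05 (adjusted p = 0.00995).

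Of 22 genes of the ATF4 response to amino acid stress, 2 were lower and 0 higher in induced iCdh23, Fgf21 and Psat1 being the 2, where 8.04% of all genes were lower. With dox 16 fell in iCdh23 and 5 in iMcam, against 17.5% and 10.1% of all genes. Without dox all 22 had values higher in iCdh23, with a median log2 difference of 1.12 against 0.017 over all genes. Of these 0 were called, where 0.474% of all genes were higher. The median between the induced lines was −0.03, against 0.0043 over all genes. Atf4 itself was at 93.4, 90.0 and 102 CPM in induced iCdh23 and 132, 122 and 139 CPM in induced iMcam, groups that do not overlap, and did not pass the test (−0.46, adjusted p = 0.373). It was at 239, 317 and 774 CPM in uninduced iCdh23, with replicate 3 the highest, and at 260.4, 247 and 415 CPM in uninduced iMcam. In this list 2 had a called downward difference of dox effects and 0 an upward one, against 5.47% and 1.02% of all genes. Of 16 interferon response genes, 6 rose with dox in iCdh23 and 5 in iMcam, against 12.9% and 7.48% of all genes. Between the induced lines 1 was higher and 2 lower in iCdh23, close to the shares of all genes, 2.76% and 8.04%.

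Over all genes, Cilp, Aff3, Clec3b, Slc6a2 and Arpp21 were among the largest differences downward in induced iCdh23. Cilp, a cartilage matrix protein, was at 1.36, 2.14 and 2.66 CPM in induced iCdh23 and 97.3, 87.8 and 247 CPM in induced iMcam, a log2 difference of −6.12 ± 0.691 (adjusted p = 0.000103). Dcn, decorin, was at 1.36, 1.3 and 2.27 CPM against 40.1, 46.2 and 74.1 CPM. It did not pass the test with dox in iMcam (0.38, adjusted p = 0.234) and fell by 22.1-fold in iCdh23, and the dox effects differed by −4.85 (adjusted p = 0.000125). The tetranectin gene Clec3b and the growth regulator Ccn3 were lower, at −5.58 and −5.08, and the noradrenaline transporter Slc6a2 at −5.52 (adjusted p = 0.000126, 0.000256 and 1.33e-06). Aff3 and Angpt4 were lower, at −5.64 and −4.82. Slc6a2 and Angpt4 were also lower without dox, at −0.97 and −1.80. The Ccn3 groups did not overlap without dox either, with iCdh23 lower, but did not pass the test (−1.79, adjusted p = 0.0966). Arpp21, Aspn and Nmrk2 had at most 3 counts in every induced iCdh23 library, so no fold is given: they were at 3.54, 3.34 and 9.07, 3.7, 1.95 and 2.73 and 1.99, 1.06 and 2.08 CPM in induced iMcam. Phex, an endopeptidase of bone listed here among osteoblast markers, was at 0.227, 0.175 and 0.27 against 9.01, 8.58 and 8.08 CPM. Of the same markers, Alpl was at 2.54, 3.12 and 5.08 against 0.215, 0.223 and 0.595 CPM (3.34, adjusted p = 0.00233). Without dox its groups did not overlap either, with iCdh23 higher and at most 3 counts in every uninduced iMcam library. That difference did not pass the test (adjusted p = 0.144), and the difference of dox effects was not called (adjusted p = 0.905). Dmp1 had at most 3 counts in every induced iCdh23 library and was at 0.644, 0.39 and 1.04 CPM in induced iMcam, and Ibsp and Dlx5 were at 0.

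Several genes higher in induced iCdh23 had risen with dox in both lines, among them Cyfip2, Mapt, Hap1, Hlf, Ramp3, Psmb9 and Plekhb1. Cyfip2, of the actin-regulating WAVE complex, was at 45.6, 41.4 and 44.6 CPM against 7.3, 8.63 and 7.38 CPM, from at most 1.31 CPM in any uninduced library, a log2 difference of 2.50 ± 0.177 (adjusted p = 5.17e-06). Mapt, the microtubule protein tau, was at 19.7, 23.8 and 21.3 against 5.26, 6.96 and 5.05 CPM (1.91, adjusted p = 6.15e-05). Hap1, the huntingtin-associated protein, was at 64.6, 63.4 and 62.5 against 22.2, 26.5 and 17.7 CPM (1.52, adjusted p = 6.45e-05). Dock8, Hlf, Ramp3, Psmb9 and Plekhb1 were higher by 2.43, 2.29, 2.26, 2.04 and 1.91. Dock8 and Psmb9 were also higher without dox, by 1.67 and 1.62, and so was Ramp3, which had at most 3 counts in every uninduced iMcam library. Cbln1, a synaptic organiser, was higher by 3.67 (adjusted p = 1.26e-06). It was also higher without dox, by 2.75. With dox it had fallen in both lines, at −0.91 in iCdh23, under 2-fold, and −1.83 in iMcam. Its difference of dox effects was not called (0.92, adjusted p = 0.0523). Nptx1, a neuronal pentraxin, fell in iMcam and not in iCdh23. It went from 56.3, 39 and 37.5 to 72.9, 74.2 and 85.2 CPM in iCdh23 and from 42.6, 49.5 and 57.5 to 24.7, 23.6 and 17.2 CPM in iMcam, and the dox effects differed by 2.00 (adjusted p = 0.000819).

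The rises were shared as well. In all, 952 genes rose in both lines, 87.4% of those that rose in iMcam and 50.6% of those that rose in iCdh23. Their median log2 rise was 2.05 in iCdh23 and 1.55 in iMcam, and 111 of them had a larger rise in iCdh23 at an adjusted p under 0.05, against 543 of the 1374 shared falls. Uchl1, a ubiquitin hydrolase of neurons, and Abat, a GABA transaminase, differed upward in their dox effects, by 2.80 and 2.66 (adjusted p = 0.0009 and 0.000216), and both were lower in uninduced iCdh23, at −1.80 and −2.27. Abat had no call between the induced lines, at 44.9, 51 and 51.2 and 36.8, 34.5 and 41 CPM, from 5.19, 4.03 and 2.62 and 20.3, 17 and 19.8 without dox. Egfl7, listed as an endothelial marker, reached 24.5, 31.2 and 30.2 CPM in induced iCdh23 and 12.8, 14.5 and 13.4 in induced iMcam, while the summed level of all 7 endothelial markers was 25.2 to 31.9 and 13.6 to 15.3 CPM there and Cdh5 was near 0.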

How the data were processed

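PolyA RNA-seq libraries were made with the NEBNext Ultra II kit, per the labels. The deposited values are estimated counts per transcript, which the authors made with Salmon on mm10, as named in the submitters' processing notes. No version is given there. The table holds 23 libraries, and 12 of them, in 4 groups of 3 biological replicates, were used. Counts of 109617 transcripts were summed to 45706 gene IDs, of which 45143 had a symbol, and rounded, since 33.6% of the values were not whole.

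Genes were filtered with filterByExpr, scaled with TMM, and tested with the quasi-likelihood test of edgeR 4.0.16 (R 4.3.3) with group as the only term. p-values were Benjamini-Hochberg adjusted over 14552 genes. The contrasts were the induced lines, the uninduced lines, dox in each line, and the difference of the dox effects. A gene was called at an adjusted p below 0.05 and more than 2-fold. With 3 against 3 libraries, an exact permutation test of a single value cannot go below 0.1, so none is given. The pipeline was tested on simulated data.

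Named were the measured regulators, Mymk, Mymx and the targeted genes. In each other list they were the 4 most abundant members, the 3 with the largest induced difference each way and the 2 with the largest difference of dox effects each way. Over all genes they were the 12 and 8 largest each way, at a mean of at least 5 CPM and with no overlap of the induced groups. Differences had to pass the adjusted p. Some genes that this rule would name are not reported here. The members and the gene lists were chosen with earlier results of these data known, and lists are described by counts and medians without a test.

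Same-numbered replicates deviated together in the uninduced lines (r = 0.540, 0.124 and 0.516) and with dox in iMcam (0.437, 0.303 and 0.465). The values in the induced lines (0.226, 0.0116 and 0.363) and with dox in iCdh23 (0.215, 0.0827 and 0.171) were positive. Not every pair there reached the limit of 0.1 used here, which does not show that pairing was absent. Alternatives were DESeq2 1.42.0, other scalings and filters, a replicate block, other sets of groups, and leaving out libraries. Libraries held 15066338 to 25110433 counts, and low counts limit genes near the filter. Promoter sequences are from RefSeq (GRCm38.p6).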

Additional observations from a re-analysis of the deposited data

Results flagged for a closer look

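The values here are those for which the dox effect itself differed between the lines, by the contrast of iCdh23 minus iMcam in 1 fit. Over all genes the difference was called for 796 in the downward (5.47%) and 148 in the upward direction (1.02%). It was called downward for 76 of the 150 muscle genes tested, among them 44 of 62 sarcomere genes, and for 18 of 26 mitosis genes and 7 of 20 collagen genes, against 5.47% of all genes.

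Among muscle genes the log2 difference was −4.18 for Myog, −3.65 for Mymk, −3.58 for Mymx, −3.96 for Acta1 and −4.46 for Ttn, and it was −1.22 for Myf5, a call lost without replicate 2 of induced iCdh23 (−1.15) and without other single libraries. For Mcam, lower in iCdh23 with and without dox but with the larger rise there, it was 0.97, under 2-fold. Among cell cycle genes it was −2.62 for Mki67 and −2.41 for Cdkn1a. Elmo1, Cdhr1, Igf1, Snai2 and Dcn fell in iCdh23 with no call in iMcam, with differences of −3.62, −2.47, −2.06, −1.68 and −4.85. Col3a1, Acta2, Igfbp5 and Clrn1 fell in both lines, with differences of −1.97, −2.77, −2.05 and −1.53. In the upward direction the difference was 2.20 for Myo7a, 2.66 for Abat, 2.80 for Uchl1 and 2.00 for Nptx1. No group had enough samples for a search for single outlying libraries. With all groups of the deposited table in the fit, 70 of the 209 differences of dox effects of named genes rose above an adjusted p of 0.05, among them those of Myf5, Mki67, Igfbp5, Clrn1, Myo7a and Abat.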

How the results depend on the processing

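More genes were called lower than higher in induced iCdh23 in each setting tried, though the groups did not overlap for slightly more genes with iCdh23 higher (24.9%) than lower (24.5%). Between the induced lines 237 genes were higher with all groups of the deposited table in the fit and 267 without replicate 3 of both induced groups, a setting chosen after seeing the data. Leaving out 1 library at a time gave 335 to 456 higher and 916 to 1240 lower, with 64 to 83 of the muscle genes lower. The cause of these shifts was not tested. For the difference of dox effects, all groups gave 33 higher, 333 lower and 48 muscle genes, leaving out replicate 3 gave 71 and 500, and single libraries gave up to 179 higher, 515 to 856 lower and 47 to 89 muscle genes, with 515 and 47 without replicate 2 of induced iCdh23. With library size alone 3004 genes rose in iCdh23 and 1648 in iMcam. The change of Cdh23 with dox in iCdh23 was then 0.65 (adjusted p = 0.00305), and Ctnnb1 with dox in iCdh23 went from −0.06 to 0.27. With TMM factors that change of Cdh23 was 0.33, and 0.19 to 0.44 without single libraries. The induced difference of Mcam was −0.55 (adjusted p = 0.687) with all groups and −0.48 (adjusted p = 0.105) without replicate 3, and −0.65 to −0.51 without single libraries.

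The uninduced lines gave the least stable counts: 107 higher and 150 lower with DESeq2, 20 and 28 with the 2 groups alone, 16 and 27 with all groups, and 44 and 56 without replicate 3. Single libraries gave 31 to 119 higher and 38 to 111 lower. The counts were 119 higher without replicate 1 of uninduced iCdh23, 31 and 38 without its replicate 2, 56 lower without replicate 1 of uninduced iMcam, and 39 and 48 without its replicate 2. With the replicate number as a block the uninduced counts were 128 and 151, and the block moved no other count by more than 1.5 times. It gave 437 higher and 1284 lower between the induced lines, where not every same-numbered pair reached the limit of 0.1. For 10 of the 12 libraries the most correlated library of another group had the same number. Of the named genes, 140 of 207 induced differences and 102 of 209 differences of dox effects stayed on the same side of the threshold in every setting, genes with no call included. With all groups, 50 of the 207 and 70 of the 209 rose above an adjusted p of 0.05. The induced differences of Tead4 (−1.35), Des (−0.75), Myod1 (−0.56), Mb (−3.32), Fgf21 (−4.24), Psat1 (−1.31), Nectin4 (1.29), Cdhr5 (2.01), Clrn1 (−0.82) and Ezr (0.53) also rose above an adjusted p of 0.05 without replicate 2 of induced iCdh23, and all of these but Psat1 did so without other single libraries too.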
